A study of Mus musculus with 18 samples.

Results

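Complex I of the mitochondrial respiratory chain takes electrons from NADH, hands them to ubiquinone and pumps protons across the inner membrane. Conserved core subunits carry the flavin, the iron-sulfur clusters and the proton channels, and many accessory subunits surround them in a peripheral arm, which reaches into the matrix, and a membrane arm. Part of the core is encoded in mitochondrial DNA and the rest in the nucleus, and assembly factors help to build the enzyme without staying in it. Preadipocytes that turn into fat cells are known to build up mitochondria.

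The genes described here are those whose listed name starts with Nduf, without the 1 name marked -ps as a pseudogene. They numbered 48 of 25209 listed genes. From general knowledge, 7 were nuclear core subunits, 31 were counted as accessory subunits and 8 were assembly factors (Ndufaf1 to Ndufaf8). Of the accessory subunits, 9 belonged to the peripheral arm and 21 to the membrane arm, and Ndufab1 to both. The membrane arm count includes Ndufa11b, which RefSeq lists as a transcribed pseudogene, since its name carries no -ps. Ndufb4c is counted there too, but shares 100% of its stretches of 50 bases with Ndufb4, so its calls may repeat those of Ndufb4. Ndufa4 and its paralogue Ndufa4l2 were kept apart from these classes, since the human NDUFA4 protein is now counted as part of complex IV. Both still count in the totals and medians of all complex I genes below. Roles given below are those known from the human and bovine enzyme. The subunits encoded in mitochondrial DNA were not analysed here.

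Polyadenylated RNA was sequenced from 3T3-L1 cells, a mouse embryonic fibroblast line that forms fat cells on hormonal stimulation, in 18 libraries, 3 in each of 6 groups. The groups were Control, then the mitotic clonal expansion stages MCE1 and MCE2 (induced preadipocytes are known to divide before they fill with fat), and then Day4, Day6 and Day8. Induction, per the labels' protocols, started 2 days after confluence with insulin at 10 µg/mL, dexamethasone at 0.25 µM and IBMX, a phosphodiesterase inhibitor, at 0.5 mM, and after 48 h the medium held insulin at 5 µg/mL. At which hour MCE1 and MCE2 were taken, from which day Day4, Day6 and Day8 were counted, and how Control was treated is not stated. Nor is it stated that the libraries of a group were separate cultures, and every p-value here measures the spread between libraries, which may be technical. Values are TPM, which are abundances corrected for gene length and scaled to a common total in each library. They keep no read depth, so the depth behind each value is unknown.

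Fat cell markers (Adipoq, Fabp4, Plin1, Cidec, Lpl and Lipe) summed to between 25454 and 28043 TPM in Day8 libraries, against 130 to 144 TPM in Control libraries. Preadipocyte or fibroblast markers (5 genes) summed to between 2433 and 3868 TPM at Day8, against 2599 to 2642 TPM in Control and 688 to 702 TPM at MCE2. These genes did not move together. At Day8 against Control, 2 were called higher, 2 lower and 1 not called, with log2 fold changes between -5.92 and 1.08. In bulk RNA a larger share of fat cells and more transcript per fat cell cannot be told apart. Macrophage markers (5 genes, with Ptprc and Adgre1 at 0 in every library) summed to at most 7.74 TPM and endothelial markers (4 genes) to at most 1.05 TPM in any library. Epithelial markers (4 genes) reached 9.29 to 12.4 TPM at Day8, against at most 0.123 TPM in Control. Skeletal muscle markers (4 genes, with Myod1, Myog and Ckm at 0 in every library) stood at 37.1 to 44.7 TPM at Day8, against 2.65 to 3.82 TPM in Control. The part of either list in the results was not tested. Brown fat markers (4 genes) summed to between 7.99 and 13.5 TPM at Day8, against 2.31 to 3.53 TPM in Control, and Ucp1, the uncoupling protein of brown fat, was at 0 in every library.

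The mean summed level of the 38 core and accessory subunits was higher at each stage than at the one before. It was 4948 ± 105 TPM in Control, 6596 ± 69.1 at MCE1, 7845 ± 329 at MCE2, 10589 ± 237 at Day4, 11906 ± 687 at Day6 and 12440.5 ± 765 at Day8 (mean ± SD, n = 3 libraries each). As a share of all listed TPM this was 1.42 ± 0.0845% at Day8, against 0.567 ± 0.0114% in Control. The Control, MCE1, MCE2 and Day4 libraries did not overlap in this sum, while those of Day6 and Day8 did. The median TPM over the same 38 genes was not higher at the last step, with 331 ± 22.6 at Day6 and 314 ± 5.55 at Day8. Core subunits alone summed to 2832 ± 139 TPM at Day8 and 1058 ± 17.6 TPM in Control. The 8 assembly factors lay closer together, with 267 ± 9.44 TPM at Day8 and 193 ± 7.19 TPM in Control, which is 2.15 ± 0.0668% of the subunit sum at Day8 and 3.90 ± 0.104% in Control. The core made up 22.8 ± 0.580% of the subunit sum at Day8, against 21.4 ± 0.560% in Control, and the membrane arm accessory subunits 51.2 ± 0.303% against 52.4 ± 0.101%.

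**Figure D1:**
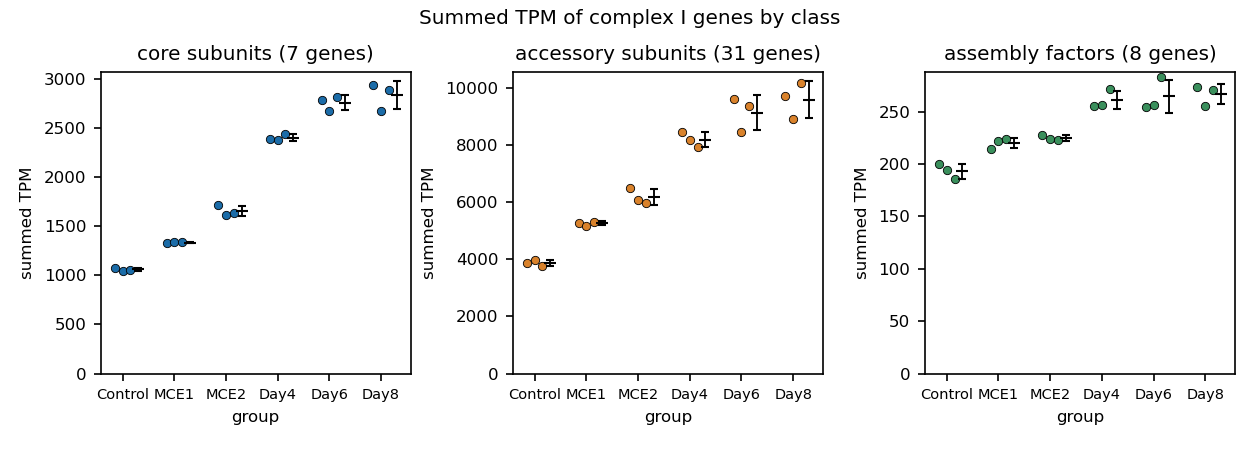
Summed TPM of the 7 core subunits, the 31 accessory subunits and the 8 assembly factors in each library (points), with the mean and SD of 3 libraries beside them (bars), by group. The core and accessory sums climb over the course, to means of 2832 and 9608 TPM at Day8, against 1058 and 3890.3 TPM in Control. The assembly factor sum climbs less, to a mean of 267 TPM at Day8 against 193 TPM in Control. It lies between 185 and 283 TPM in every library.

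Single genes were compared with limma on log2(TPM + 1), a scale that understates changes of genes with few TPM. All 12695 genes that reached 1 TPM in 3 or more libraries were fitted, and a gene was called at a Benjamini-Hochberg adjusted p under 0.05. Of the 48 complex I genes, 47 were tested and 46 had 1 TPM or more in every library. At MCE1, 30 were called higher than in Control, 0 lower and 17 were not called, beside 22.0% of all genes tested called higher and 29.4% lower. At MCE2, 36 rose and 0 fell (background 23.4% higher, 39.1% lower). At an unadjusted p under 0.05 in limma, 1 gene would have been lower at MCE1 and 1 at MCE2. At Day4, 41 rose and 1 fell (background 29.7% and 39.3%), and the same counts were found at Day6 (background 30.2% and 39.4%). At Day8, 39 rose, 1 fell and 7 were not called (background 31.7% and 39.7%). The higher counts at Day4, Day6 and Day8 include Ndufa4l2, which passed the filter only through these later groups, where it is high. The median log2 fold change against Control of the genes tested was 0.35 at MCE1, 0.63 at MCE2, 0.94 at Day4, 1.16 at Day6 and 1.27 at Day8, beside medians over all genes of -0.06, -0.17, -0.11, -0.12 and -0.11. These 5 comparisons share the Control libraries. Scaling the libraries by median ratios moved the medians over all genes up by between 0.09 and 0.17, and complex I genes called higher then numbered 36, 39, 41, 44 and 40.

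In 36 of the 47 tested genes all 3 MCE1 libraries lay above all 3 Control libraries, and in 2 below them, beside 28.4% and 36.9% of all genes tested. The counts were 36 above and 1 below at MCE2 (background 26.1% and 43.2%), 41 and 1 at Day4 (background 31.6% and 41.9%), 43 and 1 at Day6 (background 32.2% and 41.6%) and 38 and 1 at Day8 (background 32.2% and 40.3%). Ndufa4l2 is again among the genes above Control at Day4, Day6 and Day8. Genes called higher in each of the 5 comparisons with Control numbered 6 of 7 core subunits, all but Ndufs8, 19 of 31 accessory subunits and 2 of 8 assembly factors, Ndufaf6 and Ndufaf7, beside 10.2% of all genes tested. The class medians of the log2 fold change were 0.36 in the core, 0.40 in the accessory subunits and 0.26 in the assembly factors at MCE1, then 0.70, 0.65 and 0.44 at MCE2, 1.16, 0.95 and 0.43 at Day4, 1.36, 1.16 and 0.52 at Day6, and 1.38, 1.27 and 0.35 at Day8.

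**Figure D2:**
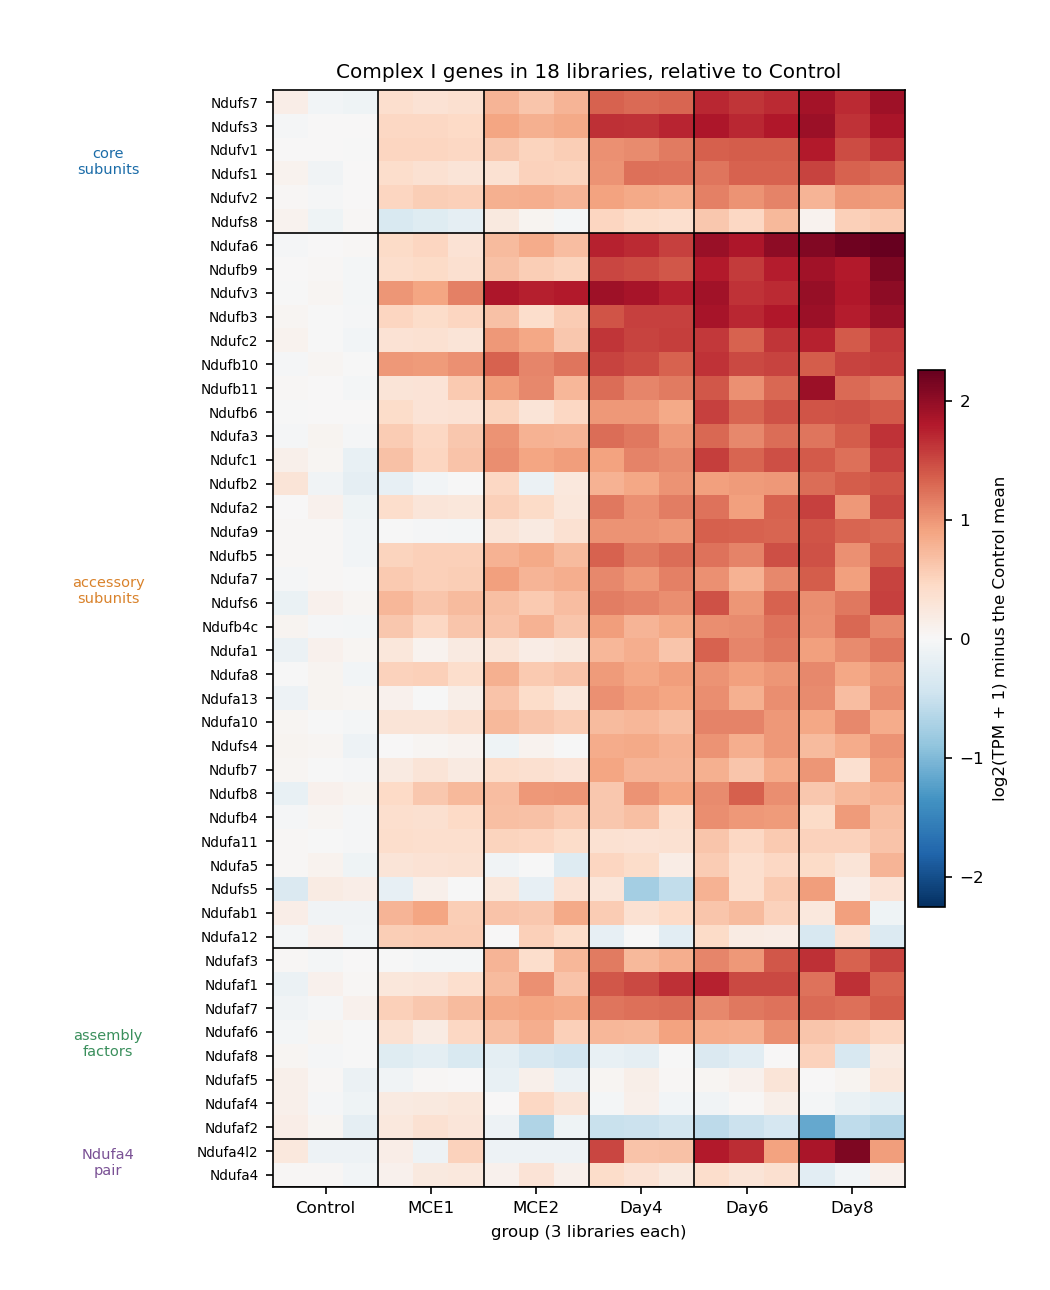
Level of 46 of the 47 tested genes in the 18 libraries, as log2(TPM + 1) minus the gene's Control mean (colour), with the 3 libraries of each group side by side and genes ordered within each class by their Day8 change. Most core and accessory rows turn red stage by stage, Ndufv3 and Ndufb10 already at MCE1, while Ndufaf2 is blue from MCE2 on.

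The promoters of genes that rose most, little or not at all are shown here because Nrf1, Gabpa, Esrra and Yy1 products are known to bind promoters of respiratory chain genes. RefSeq windows of GRCm38.p6, which run from 250 bases before to 50 bases after the listed start, were found for 40 of the 48 genes. Ndufa6 had the highest Day8 change of all 48, Ndufs7 the highest of the core, Ndufa9 was not called at MCE1 but rose later, Ndufaf5 was not called by the test over all groups and Ndufaf2 fell. Capitals mark a match to the NRF1 motif (Ndufa6 and Ndufaf5), which is GCGCA, any base and GCGC on either strand, or to the YY1 motif AAGATGGC (Ndufs7 and Ndufa9), and Ndufaf2 had no match to any of the 5 motifs searched. The Ndufa6 window lies at chr15:82354242-82354541, minus strand, that of Ndufs7 at chr10:80249199-80249498, plus strand, that of Ndufa9 at chr6:126849095-126849394, minus strand, that of Ndufaf5 at chr2:140170396-140170695, plus strand and that of Ndufaf2 at chr13:108158576-108158875, minus strand, and each is written in the direction of transcription.
Ndufa6: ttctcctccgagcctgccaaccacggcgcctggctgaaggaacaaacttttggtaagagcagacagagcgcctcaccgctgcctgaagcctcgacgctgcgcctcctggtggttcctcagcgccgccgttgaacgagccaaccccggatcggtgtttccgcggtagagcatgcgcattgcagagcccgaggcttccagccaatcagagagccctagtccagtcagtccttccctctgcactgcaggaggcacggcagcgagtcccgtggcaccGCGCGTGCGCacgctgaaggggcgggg
Ndufs7: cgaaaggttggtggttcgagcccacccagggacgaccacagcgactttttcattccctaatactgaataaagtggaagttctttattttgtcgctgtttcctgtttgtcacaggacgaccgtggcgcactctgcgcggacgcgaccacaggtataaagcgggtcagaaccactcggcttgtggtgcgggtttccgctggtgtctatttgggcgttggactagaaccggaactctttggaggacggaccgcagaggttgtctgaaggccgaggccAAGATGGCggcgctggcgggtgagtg
Ndufa9: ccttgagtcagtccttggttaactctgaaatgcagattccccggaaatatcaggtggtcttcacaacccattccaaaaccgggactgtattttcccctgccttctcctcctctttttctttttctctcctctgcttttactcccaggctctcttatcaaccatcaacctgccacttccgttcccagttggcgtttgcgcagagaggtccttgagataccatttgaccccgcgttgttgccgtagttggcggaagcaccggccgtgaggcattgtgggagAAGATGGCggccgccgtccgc
Ndufaf5: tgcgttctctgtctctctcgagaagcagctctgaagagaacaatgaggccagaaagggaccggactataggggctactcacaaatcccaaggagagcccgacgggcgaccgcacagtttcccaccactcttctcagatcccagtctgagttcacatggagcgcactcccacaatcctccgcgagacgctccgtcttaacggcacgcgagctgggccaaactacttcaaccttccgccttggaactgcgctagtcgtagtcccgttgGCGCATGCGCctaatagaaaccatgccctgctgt
Ndufaf2: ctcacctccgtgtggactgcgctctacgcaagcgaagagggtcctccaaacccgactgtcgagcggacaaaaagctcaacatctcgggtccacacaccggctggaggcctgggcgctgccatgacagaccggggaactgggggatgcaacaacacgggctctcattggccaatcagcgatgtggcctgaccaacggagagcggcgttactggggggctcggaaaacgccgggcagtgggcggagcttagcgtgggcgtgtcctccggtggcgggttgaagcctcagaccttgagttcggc

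Searched on both strands, the YY1 motif AAGATGGC occurred in 8 of the 40 windows (20%), beside 3.19% of the windows of 27025 genes and 3.57% of those of 17491 protein-coding genes. The 8 genes were Ndufs7, Ndufa3, Ndufa9, Ndufb8, Ndufc1, Ndufs4, Ndufs6 and Ndufaf8, and every match began between 10 and 38 bases after the listed start, as in the Ndufs7 and Ndufa9 sequences above. These letters contain ATG, so a match after the start can overlap a start codon. The NRF1 motif occurred in 9 of 40 (22.5%), beside 5.19% of all windows and 7.17% of coding ones. Its palindrome, with T as the free base, is contained in that count and was found in 3 of 40 (7.5%), beside 1.07% and 1.47%. The ESRRA motif AAGGTCA was found in 3 of 40 (7.5%), beside 5.38% and 4.73%, and the ETS motif CCGGAAGT, which GABPA binds, in 1 of 40 (2.5%), beside 4.31% and 5.69%. The median Day8 log2 fold change was 1.30 over the 8 genes with AAGATGGC and 1.03 over the 32 without it. It was 0.56 over the 9 genes with the NRF1 motif and 1.29 over the 31 without it, with Ndufa6 at the top (2.18) and Ndufaf4 at the bottom (-0.14) of the 9. A match is a string of letters and no sign of binding.

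All 7 core subunits were called higher at Day4, Day6 and Day8 than in Control, with a median log2 fold change of 1.38 at Day8. Of all genes tested, 29.7%, 30.2% and 31.7% were called higher at these stages. The largest was that of Ndufs7 (chromosome 10, 79712194 to 79719539 of mm9), which carries the last iron-sulfur cluster before ubiquinone, with 516, 453 and 532 TPM at Day8 and 156, 135 and 131 TPM in Control (log2 fold change 1.83, SE 0.07, adjusted p = 7.08e-13). Ndufs3, which lies in the ubiquinone-binding part of the arm, had 511, 414 and 479.7 TPM at Day8 and 132, 135 and 133 TPM in Control (log2 fold change 1.80, SE 0.06, adjusted p = 2.27e-13). In both genes all Day8 libraries stood above all Control libraries by a wide margin. Ndufv1, which binds NADH and the flavin, had 643, 518 and 577 TPM at Day8 against 187, 186 and 184 TPM (log2 fold change 1.63, SE 0.06, adjusted p = 6.67e-13). Ndufs1, the largest subunit, had 134, 118 and 113 TPM at Day8 against 48.5, 43.5 and 46.4 TPM (log2 fold change 1.38, SE 0.08, adjusted p = 1.31e-10).

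Ndufv2, an iron-sulfur protein beside Ndufv1, rose early. It had 158, 152 and 156 TPM in Control, 217, 227 and 225 at MCE1, 272, 276 and 266 at MCE2, 291, 282 and 275 at Day4, 344, 313 and 339 at Day6 and 266, 306 and 305 at Day8. Control, MCE1 and MCE2 libraries lay apart, each above the group before, and Day4 and MCE2 overlapped. Its log2 fold change was 0.52 at MCE1, 0.80 at MCE2, 0.86 at Day4, 1.09 at Day6 and 0.91 at Day8.

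Ndufs8 (chromosome 19, 3908863 to 3912774), which holds a pair of iron-sulfur clusters next to Ndufs7, was the core subunit with the smallest change. Its levels were 138, 123 and 133 TPM in Control, 103, 109 and 113 at MCE1, 154, 136 and 127 at MCE2, 183, 174 and 171 at Day4, 199.6, 181 and 217 at Day6 and 138, 190.4 and 199 at Day8. All MCE1 libraries lay below all Control libraries, a pattern found in 36.9% of all genes tested, but the difference was not called (log2 fold change -0.27, SE 0.11, adjusted p = 0.0539). Lower calls came with a filter of 5 TPM (adjusted p = 0.0481), under quantile normalization (adjusted p = 0.0197) and in a fit on the 6 libraries alone (adjusted p = 0.00575), and over all alternatives the adjusted p ran between 0.00575 and 0.34. At Day8 it rose (log2 fold change 0.40, SE 0.11, adjusted p = 0.00474), although 1 Day8 library lay within the Control range.

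Among the 31 accessory subunits 27 rose at Day8, 0 fell, 3 were not called and 1 was not tested, with a median log2 fold change of 1.27. Ratios of Day8 to Control mean TPM ran between 0.947 for Ndufa12 and 4.57 for Ndufa6, with a median of 2.44, beside a median of 2.64 in the core and 1.32 in the assembly factors. In the peripheral arm 8 of 9 were called higher (median log2 fold change 1.27), and in the membrane arm 19 of 21, with 20 tested (median 1.21). Of all genes tested, 31.7% were called higher at Day8 and 39.7% lower. The difference between arms or classes was not tested.

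The 4 largest Day8 changes belonged to accessory subunits. Ndufa6 (chromosome 15, 82180569 to 82184721), a peripheral arm subunit that docks the acyl carrier protein Ndufab1, had 129, 133 and 133 TPM in Control, 178, 184 and 165 at MCE1, 215, 238 and 213 at MCE2, 444, 427 and 388 at Day4, 509, 467 and 534 at Day6 and 566, 607 and 634 at Day8. The 6 groups did not overlap, each lying above the one before (log2 fold change 2.18, SE 0.07, adjusted p = 6.07e-14, Day8 against Control). Ndufb9 (chromosome 15, 58765356 to 58771071), which docks a second Ndufab1 copy in the membrane arm, had the highest level of the accessory subunits, with 865, 801 and 998 TPM at Day8 and 233, 236 and 223 TPM in Control (log2 fold change 1.94, SE 0.07, adjusted p = 8.55e-13). Of its transcript sequence, 15.6% is shared with another gene in stretches of 50 bases, so part of its reads may be split. Ndufb3 (chromosome 1, 58643241 to 58652808), a small membrane arm subunit, had 291, 260.1 and 295 TPM at Day8 and 77.3, 74.7 and 74.1 TPM in Control (log2 fold change 1.89, SE 0.07, adjusted p = 5.34e-13).

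Ndufab1 (chromosome 7, 129230329 to 129245362) itself, the mitochondrial acyl carrier protein, which sits in both arms, followed another course at a far lower level. It had 13.2, 11.2 and 11.2 TPM in Control, 20.8, 22.7 and 17.8 at MCE1, 19.1, 18.6 and 22.3 at MCE2, 18.1, 15.3 and 16.5 at Day4, 18.9, 20.0 and 17.3 at Day6 and 14.1, 23.4 and 10.9 at Day8. It was among the 4 highest changes at MCE1 (log2 fold change 0.73, SE 0.19, adjusted p = 0.00371) and was not called at Day8 (log2 fold change 0.35, SE 0.19, adjusted p = 0.103), where its libraries spread widely. Without Day8 replicate 3 it was called there (0.58, adjusted p = 0.00618), as under median-ratio scaling (adjusted p = 0.0246) and quantile normalization (adjusted p = 0.0191).

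Ndufv3 (chromosome 17, 31657060 to 31668270), an accessory subunit beside the NADH site, had the highest change at MCE1. Its levels were 110.1, 114 and 107 TPM in Control, 223, 207 and 243 at MCE1, 397, 374 and 383 at MCE2, 418, 405 and 374 at Day4, 416, 343 and 358 at Day6 and 433, 389 and 453 at Day8. Both expansion stages stood apart from Control and from each other (log2 fold change 1.01, SE 0.08, adjusted p = 1.48e-08 at MCE1, and 1.79 at MCE2), while MCE2 and the 3 later groups overlapped. Ndufb10 (chromosome 17, 24859006 to 24861368), a membrane arm subunit that faces the intermembrane space, had 406, 399.7 and 421 TPM at MCE1 against 200.2, 211 and 204 TPM in Control (log2 fold change 0.99, SE 0.07, adjusted p = 3.63e-09). Ndufs6, a zinc-binding subunit of the peripheral arm, had 122, 112 and 119 TPM at MCE1 against 65.4, 77.8 and 74.4 TPM in Control (log2 fold change 0.69, SE 0.12, adjusted p = 0.00012). Among the smallest called rises at MCE1 were those of Ndufa10 (0.32), Ndufc2 (0.32) and Ndufa5 (0.32). Ndufa10, a membrane arm subunit related to nucleoside kinases, had 206, 208 and 218 TPM at MCE1 against 174, 169 and 164 TPM in Control, and Ndufc2, another membrane arm subunit, 179, 183 and 176 TPM against 151, 142 and 137 TPM.

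Among other membrane arm subunits, Ndufc2 had 479, 376 and 434 TPM at Day8 and 151, 142 and 137 TPM in Control (log2 fold change 1.57). Ndufa13, also known as GRIM-19, had 358, 276 and 351 TPM at Day8 and 158, 178 and 174 TPM in Control (0.94), and was not called at MCE1. Ndufb11, encoded on the X chromosome, had 508, 319.9 and 306 TPM at Day8 and 135, 133 and 128 TPM in Control (1.47). In these 3 genes no Day8 library overlapped with Control, though Day8 replicate 1 of Ndufb11 stood far above the other Day8 libraries. The Ndufb11 rise at MCE1 (0.39, adjusted p = 0.0471) was lost in 8 of 14 alternatives, among them leaving out any 1 Control or MCE1 library (adjusted p between 0.0546 and 0.18). The remaining accessory subunits called higher at Day8, which are Ndufa1, Ndufa2, Ndufa3, Ndufa7, Ndufa8, Ndufa10, Ndufb2, Ndufb4, Ndufb4c, Ndufb5, Ndufb6, Ndufb7, Ndufb8, Ndufc1, Ndufs4 and Ndufs6, had log2 fold changes between 0.69 for Ndufb4 and 1.41 for Ndufb6.

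Ndufa9 and Ndufs4 were not called at MCE1 and rose afterwards. Ndufa9 (chromosome 6, 126771881 to 126799162), which sits near the ubiquinone site at the joint of the arms, had 183, 182 and 172 TPM in Control, 177, 175 and 174 at MCE1, 218, 206 and 227 at MCE2, 361, 362 and 355 at Day4, 457, 450.3 and 449 at Day6 and 478, 447 and 437 at Day8. Its MCE1 change was -0.03 (adjusted p = 0.606) and its Day8 change 1.34 (adjusted p = 1.24e-13). Ndufs4, a peripheral arm subunit whose loss in mice is used as a model of Leigh syndrome, had 47.7, 54.2 and 51.1 TPM at MCE2 and 53.5, 53.2 and 47.5 TPM in Control, and then 92.2, 93.7 and 89.6 TPM at Day4 (log2 fold change 0.84, SE 0.08, adjusted p = 1.99e-07 for Day4 against MCE2). The libraries of Ndufs4 at Day4 all lay above those of both earlier groups, which overlapped.

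Ndufa5 (chromosome 6, 24468664 to 24477690), a peripheral arm subunit, was called higher at MCE1, lower at MCE2 than at MCE1, and higher again from Day4. It had 201, 211 and 185 TPM in Control, 245, 249.8 and 252 at MCE1, 189, 198 and 163 at MCE2, 279.7, 264 and 222 at Day4, 297, 258 and 277 at Day6 and 268, 244 and 339 at Day8. The MCE1 call (adjusted p = 0.0236) ended without Control replicate 3 (adjusted p = 0.0932), without MCE1 replicate 2 (adjusted p = 0.0554) or without MCE1 replicate 3 (adjusted p = 0.0595), and the Day4 call without Day4 replicate 1 (adjusted p = 0.0526). Ndufa11 (chromosome 17, 56857185 to 56863671), a membrane arm subunit, rose by less than most, with 58.3, 58.4 and 63.6 TPM at Day8 against 41.2, 40.2 and 39.7 TPM in Control (log2 fold change 0.56, SE 0.05, adjusted p = 6.61e-08).

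Ndufa12 and Ndufs5 were the other accessory subunits not called at Day8. Ndufa12 (chromosome 10, 93661780 to 93684183), a peripheral arm subunit, had 104, 115 and 103 TPM in Control, 158, 159 and 160.2 at MCE1, 108, 156 and 143 at MCE2, 93.7, 106 and 90.8 at Day4, 145, 122 and 120.0 at Day6 and 83.0, 135 and 86.6 at Day8. It was highest at MCE1 (log2 fold change 0.57, SE 0.16, adjusted p = 0.00723), and its Day8 change was -0.11 (adjusted p = 0.541). Without Day8 replicate 2, its highest library there, it was called lower (-0.33, adjusted p = 0.0274). Ndufs5, a membrane arm subunit, had 28.3, 41.0 and 39.8 TPM in Control, 31.3, 38.9 and 35.9 at MCE1, 43.0, 31.3 and 45.5 at MCE2, 43.5, 20.6 and 24.0 at Day4, 62.9, 46.9 and 54.6 at Day6 and 69.6, 39.8 and 44.7 at Day8. Its libraries spread widely within groups, and its Day8 change (log2 fold change 0.46, SE 0.26, adjusted p = 0.118) was not called except under quantile normalization (adjusted p = 0.0459). Against Day4 it was called higher at Day6 (0.94), a call that ended without Day4 replicate 2 (adjusted p = 0.065), Day4 replicate 3 (adjusted p = 0.0515) or Day6 replicate 1 (adjusted p = 0.0532). Of its transcript sequence 21.7% is shared with BC002163. Ndufs5-ps, which is not a member, had 53.5, 47.8 and 48.4 TPM at Day4, against 22.5, 21.3 and 22.6 TPM at MCE2. Whether reads were split between Ndufs5 and Ndufs5-ps was not tested.

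**Figure D3:**
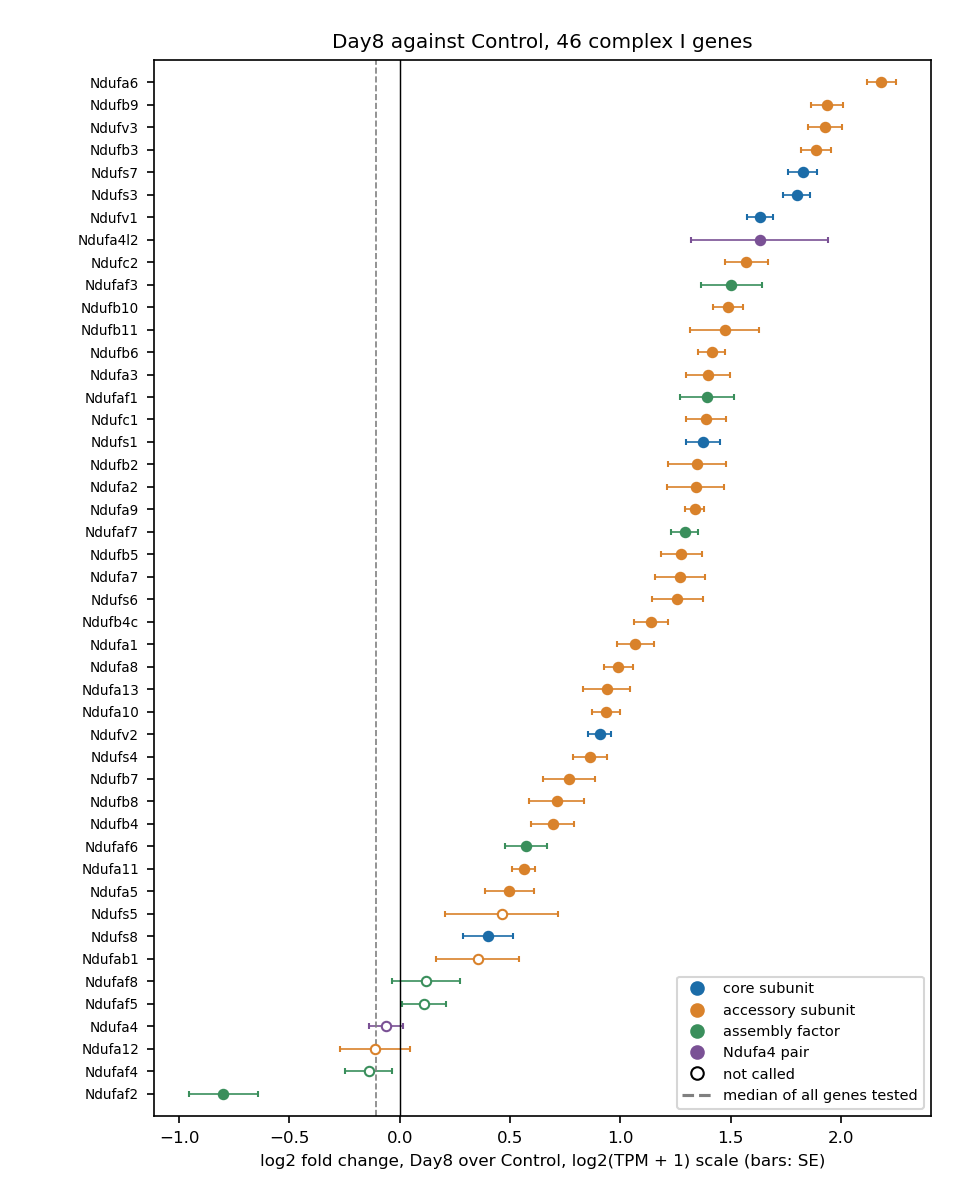
Log2 fold change of Day8 over Control on the log2(TPM + 1) scale for 46 of the 47 tested genes (points, bars are SE), ordered by size, with filled points for called genes and open points for genes not called. The dashed line is the median of all genes tested, -0.11; complex I genes run between 2.18 for Ndufa6 at the top and -0.80 for Ndufaf2 at the bottom.

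Assembly factors did not move as one group. At Day8, 4 of 8 rose (Ndufaf1, Ndufaf3, Ndufaf6 and Ndufaf7), Ndufaf2 fell and 3 were not called, with a median log2 fold change of 0.35. At MCE1 2 of 8 rose, beside 6 of 7 core and 22 of 31 accessory subunits. Of all genes tested, 31.7% were called higher and 39.7% lower at Day8, and 22.0% higher and 29.4% lower at MCE1. Ndufaf1, a member of the assembly complex that inserts the membrane arm, had 13.2, 15.6 and 14.8 TPM in Control, 17.5, 17.8 and 19.1 at MCE1, 24.3, 30.6 and 23.2 at MCE2, 40.3, 42.5 and 47.7 at Day4, 50.7, 42.5 and 42.7 at Day6 and 35.2, 47.9 and 37.4 at Day8. Its Day8 rise was 1.40 (adjusted p = 3.65e-08).

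Ndufaf3 and Ndufaf4, whose human products bind each other early in assembly, took different courses. Ndufaf3 had 28.7, 22.7 and 26.3 TPM at Day8 and 8.67, 8.13 and 8.54 TPM in Control (log2 fold change 1.504, SE 0.14, adjusted p = 6.19e-08), the largest change of the 8. Ndufaf4 had 15.2, 14.0 and 13.3 TPM at Day8 and 17.1, 15.5 and 14.6 TPM in Control and was not called (log2 fold change -0.14, SE 0.11, adjusted p = 0.251). The Ndufaf3 ranges lay far apart, while those of Ndufaf4 overlapped. Ndufaf4 was called higher at MCE2 (0.25, adjusted p = 0.0482), a call that ended without Control replicate 2 (adjusted p = 0.103) or 3 (adjusted p = 0.16), and without MCE2 replicate 2 (adjusted p = 0.239) or 3 (adjusted p = 0.117).

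Ndufaf7 (chromosome 17, 79336475 to 79347392), a methyltransferase, had the highest mean level of the assembly factors over the 18 libraries. It had 24.6, 25.7 and 28.1 TPM in Control, 38.5, 40.4 and 43.2 at MCE1, 47.9, 49.4 and 48.2 at MCE2, 61.8, 63.5 and 63.6 at Day4, 56.4, 61.1 and 62.7 at Day6 and 64.8, 62.9 and 68.5 at Day8. Each of the first 4 groups stood above the one before without overlap (log2 fold change 1.29, SE 0.06, adjusted p = 1.74e-11, Day8 against Control). Ndufaf6 had 23.8, 23.2 and 21.4 TPM at Day8, 27.6, 27.3 and 32.1 TPM at Day6 and 14.6, 15.5 and 14.97 TPM in Control. It was called higher at Day8 than in Control (0.57) and lower at Day8 than at Day6 (-0.33, adjusted p = 0.0202), the second call ending without Day6 replicate 3 (adjusted p = 0.0961) or without Day8 replicate 3 (adjusted p = 0.0694).

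Ndufaf2 (chromosome 13, 108842783 to 108948819), a paralogue of Ndufa12 that occupies its place on the arm during assembly, was the 1 complex I gene called lower against Control. It had 57.0, 52.7 and 44.4 TPM in Control, 60.6, 65.4 and 61.6 at MCE1, 47.01, 31.4 and 47.5 at MCE2, 35.6, 36.2 and 38.3 at Day4, 33.7, 36.1 and 39.0 at Day6 and 22.3, 33.8 and 32.04 at Day8. All libraries of the last 3 groups lay below all Control and MCE1 libraries. The fall was called at Day8 (log2 fold change -0.80, SE 0.16, adjusted p = 0.000259) and stayed called in all 14 alternatives. It was lower at MCE2 than at MCE1 (-0.59, adjusted p = 0.00634). Against Control it was also called at Day4 (-0.47, adjusted p = 0.0149) and Day6 (-0.48, adjusted p = 0.0117). Both of these calls ended under median-ratio scaling (-0.32 and -0.34), under quantile normalization (-0.31 and -0.35) and without Control replicate 1 (-0.39 and -0.41). Of its transcript sequence 64.1% is shared with B230220B15Rik, so its level is uncertain. Ndufaf2 and Ndufa12 both had their highest mean at MCE1, and neither rose at Day8.

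Ndufaf5 and Ndufaf8 were the 2 tested genes that the F test over the 6 groups did not call, beside 45 called complex I genes and 87.6% of all genes tested. Ndufaf5 (chromosome 2, 139996382 to 140030988), which hydroxylates Ndufs7, had 14.1, 13.1 and 11.8 TPM in Control, 12.2, 13.2 and 13.0 at MCE1, 11.4, 14.1 and 11.8 at MCE2, 13.4, 14.3 and 13.2 at Day4, 13.5, 13.9 and 16.1 at Day6 and 13.1, 13.6 and 15.6 at Day8 (F test adjusted p = 0.335). Each later group overlapped with Control. Ndufaf8 (chromosome 11, 119960248 to 119961738), which binds and stabilizes Ndufaf5, had 50.3, 47.7 and 48.2 TPM in Control, 40.1, 41.6 and 38.3 at MCE1, 41.8, 37.6 and 35.8 at MCE2, 43.1, 42.4 and 48.7 at Day4, 38.9, 41.4 and 48.8 at Day6 and 70.0, 37.7 and 56.5 at Day8 (F test adjusted p = 0.089). MCE1 and MCE2 libraries lay below all Control libraries, a pattern found in 36.9% and 43.2% of all genes tested. The Day8 libraries spread from below to above the Control range, and without Day8 replicate 2 the gene was called higher at Day8 (0.36, adjusted p = 0.00719).

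**Figure D4:**
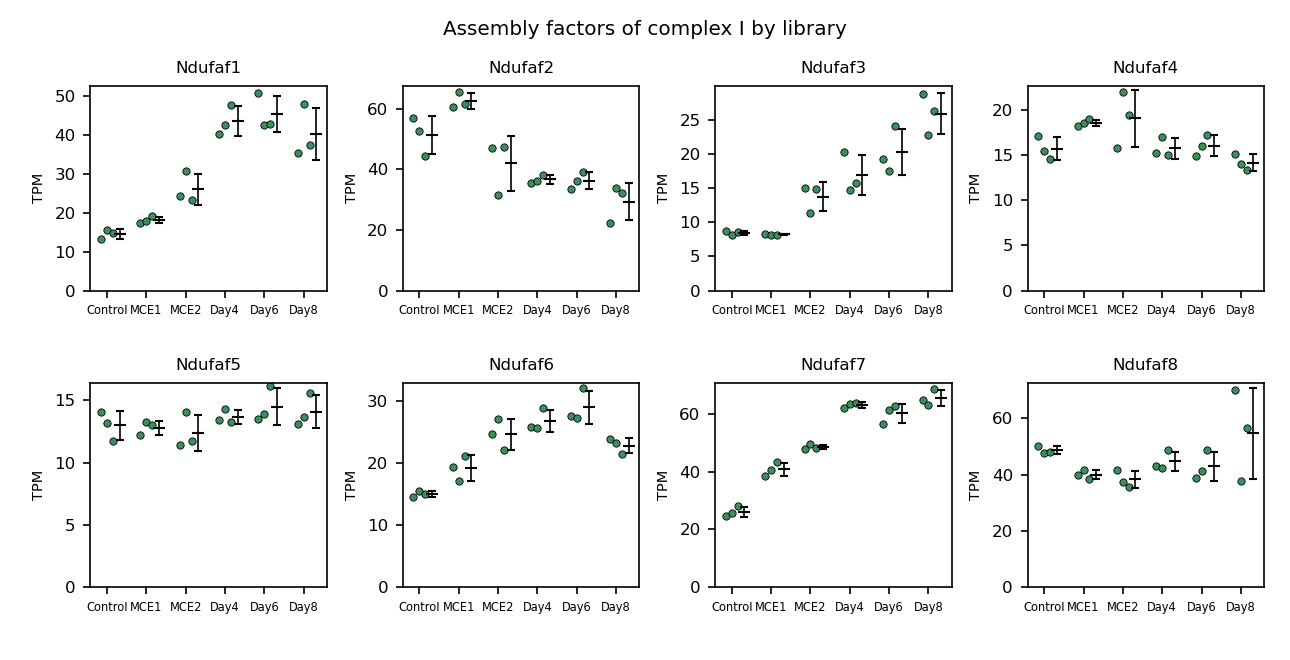
TPM of each of the 8 assembly factors in each library (points), with the mean and SD of 3 libraries beside them (bars), by group. Ndufaf1, Ndufaf3, Ndufaf6 and Ndufaf7 lie higher in the later groups than in Control, Ndufaf2 lies lower, and Ndufaf4, Ndufaf5 and Ndufaf8 overlap with Control at Day8.

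Ndufa4 (chromosome 6, 11850372 to 11857450) had the highest level of all 48 genes, with a mean of 961 TPM over the 18 libraries. It had 873, 869 and 820.2 TPM in Control, 918, 991 and 1008 at MCE1, 916, 1051 and 924 at MCE2, 1137, 1070.2 and 998 at Day4, 1119.8, 1048 and 1100.2 at Day6 and 726, 821 and 916 at Day8. It rose at Day4 (0.32) and Day6 (0.35) against Control, calls that ended under quantile normalization (adjusted p = 0.449 and 0.131). It fell by 0.41 on the log2 scale at Day8 against Day6 (adjusted p = 0.00126). At Day8 it was not called against Control (log2 fold change -0.06, SE 0.08, adjusted p = 0.482), except under quantile normalization (-0.19, adjusted p = 0.0436).

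Ndufa4l2 (chromosome 10, 126951995 to 126954210), which is known as a hypoxia-induced gene, was near 0 before Day4. It had 0.274, 0 and 0 TPM in Control, 0.200, 0 and 0.552 at MCE1, 0, 0 and 0 at MCE2, 2.09, 0.689 and 0.707 at Day4, 2.74, 2.43 and 1.04 at Day6 and 2.90, 3.65 and 1.09 at Day8. It passed the filter only through the later groups, where it is high, so its call at Day8 (1.63) is a description. Ndufa11b (chromosome 16, 22053760 to 22054426) was listed at 1.51 TPM in Day8 replicate 1 and at 0 in the other 17 libraries, and was not tested.

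The steps between neighbouring stages differed in size. From MCE1 to MCE2, 21 complex I genes rose and 2 fell (Ndufaf2 and Ndufa5), beside 17.7% and 25.2% of all genes tested. At Day4 against MCE2, 27 rose and 2 fell (background 29.6% and 22.0%), with 6 of 7 core subunits, 18 of 31 accessory subunits and 2 of 8 assembly factors higher, and Ndufa4l2, which was listed at 0 at MCE2. At Day6 against Day4, 16 rose and 0 fell (background 14.5% and 11.2%), of which 4 were core, 12 accessory and 0 assembly factors, and at an unadjusted p under 0.05 in limma 0 complex I genes were lower and 0 assembly factors higher. At Day8 against Day6, 4 rose and 5 fell (background 10.1% and 11.6%). That count depended on single libraries, with 17 calls without Day8 replicate 2, 4 without Day6 replicate 2 or Day8 replicate 1, 5 without Day6 replicate 3 or Day8 replicate 3, and 2 in a fit on the 6 libraries alone. Over the whole later phase, Day8 against Day4, 17 rose and 1 fell, Ndufa4 (background 23.2% and 21.6%). Neighbouring steps share a group and are not independent.

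**Figure D5:**
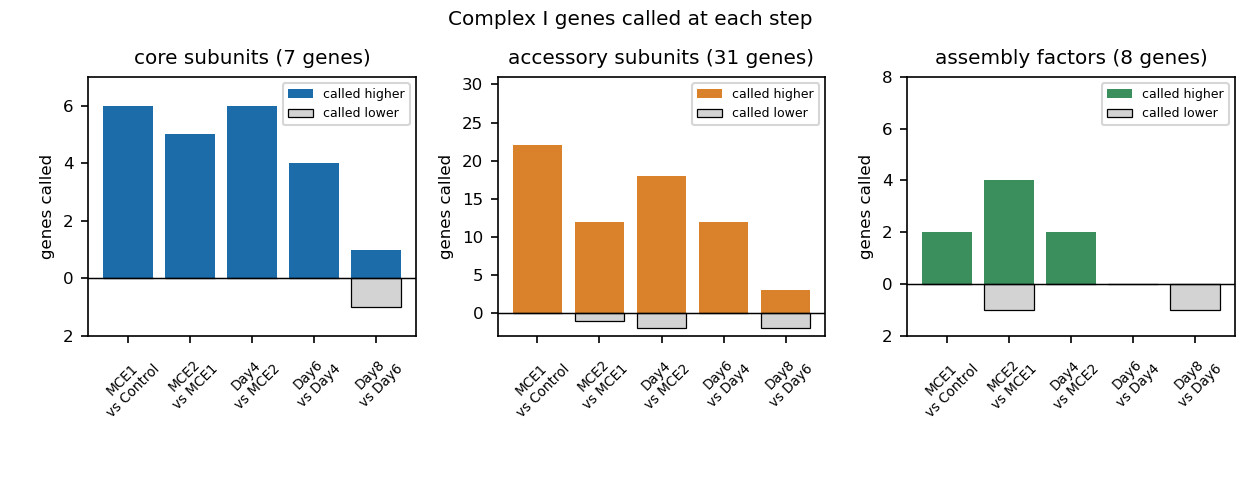
Number of core subunits, accessory subunits and assembly factors called higher (upward bars) and lower (downward grey bars) at each of the 5 steps between neighbouring stages. Core subunits have 6 of 7 called higher at the first step and 6 of 7 at the step to Day4, and 1 higher and 1 lower at the last.

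At the step from MCE2 to Day4, the largest changes of genes detected in both groups were those of Ndufb3 (0.96), Ndufa6 (0.91) and Ndufb9 (0.90). Ndufa4l2 was listed at 0 in all MCE2 libraries, so no fold is given for it. Ndufb3 had 203, 222 and 222 TPM at Day4 and 120.4, 99.7 and 112 TPM at MCE2, and Ndufb9 659, 644 and 608 TPM at Day4 and 363, 337 and 325 TPM at MCE2. No Day4 library of either gene overlapped with MCE2. The called falls were small. That of Ndufa12 (-0.46, adjusted p = 0.0229) ended without MCE2 replicate 2 (adjusted p = 0.105) or 3 (adjusted p = 0.0732) and without Day4 replicate 1 (adjusted p = 0.0596) or 3 (adjusted p = 0.0705). That of Ndufa11 (-0.13, adjusted p = 0.0432) ended in 8 of 14 alternatives, among them leaving out MCE2 replicate 1 or 2 or any Day4 library (adjusted p between 0.0749 and 0.126), with 51.5, 50.8 and 51.2 TPM at Day4 and 57.9, 56.6 and 54.2 TPM at MCE2. The smallest called rises were those of Ndufb10 (0.23) and Ndufa8 (0.24), and both ended under median-ratio scaling (adjusted p = 0.132 and 0.0968). The Ndufb10 call also ended without MCE2 replicate 2 (adjusted p = 0.0582) or Day4 replicate 1 (adjusted p = 0.0553). Ndufb10 had 596, 568 and 515 TPM at Day4 and 517, 442 and 477 TPM at MCE2, and Ndufa8, a membrane arm subunit with twin cysteine motifs, 438, 411 and 433 TPM at Day4 and 396, 338 and 353 TPM at MCE2.

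The timing of the rise differed between genes of 1 class. For genes called higher at Day8, the share of the Day8 minus Control difference in mean TPM that was present at MCE2 had a median of 25.4% over the 7 core subunits, 40.1% over the 27 accessory subunits and 51% over the 4 assembly factors. Ndufv2 (84.8%), Ndufv3 (87.2%) and Ndufb4 (88.7%), a membrane arm subunit, had most of it by then. Ndufs4 (-0.898%), Ndufa5 (-18.7%), Ndufa9 (13.9%) and Ndufb2 (9.51%), a small membrane arm subunit, had little or none. Ndufb8 (134%) and Ndufaf6 (123%) had a higher mean at MCE2 than at Day8, but the difference was not tested and the libraries overlapped. Ndufb8 had 25.4 to 31.5 TPM at MCE2 and 23.9 to 27.2 TPM at Day8, and Ndufaf6 22.1 to 27.1 TPM and 21.4 to 23.8 TPM. By Day4 the median was 87.4% in the core and 73% in the accessory subunits. The highest group mean fell at Day6 in 3 core, 10 accessory and 3 assembly genes, at Day8 in 4, 17 and 3, and at an earlier stage in 0, 3 and 2, of 7, 30 and 8 genes tested.

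TPM corrects for length, so levels are set side by side here, though the annotation used and the handling of shared reads are unknown. In Day8 libraries the tested accessory subunits ran between Ndufab1 at 16.2 ± 6.47 TPM and Ndufb9 at 888 ± 101 TPM (mean ± SD, n = 3). Ndufs1, of the core, stood at 122 ± 11.01 TPM. Assembly factors lay between Ndufaf5 at 14.1 ± 1.33 TPM and Ndufaf7 at 65.4 ± 2.83 TPM. Ndufab1, Ndufb8 (25.8 ± 1.71 TPM), Ndufs5 (51.3 ± 15.97 TPM) and Ndufa11 (60.1 ± 3.03 TPM) were thus listed in the range of the assembly factors. Of their stretches of 50 bases, 9.27%, 2.67%, 21.7% and 5.39% are shared with other genes. Whether this lowered their levels was not tested. Ndufb4c, at 67.5 ± 6.95 TPM, shares 100% of its stretches of 50 bases with Ndufb4, at 259.9 ± 48.3 TPM, and the 2 cannot be told apart from each other with certainty. Other genes with over 10% of such stretches in common with 1 or more other genes were Ndufb6, Ndufa13, Ndufs3, Ndufa12, Ndufb11, Ndufb5 and Ndufa11b. The libraries were prepared without strand, so reads of overlapping genes on the other strand cannot be told apart either.

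Other genes of the pathway were compared at Day8 in the same fit. Of 12 assembly factors of complex I with other names, 11 were tested, and 6 rose and 0 fell at Day8, with a median log2 fold change of 0.48. They included Foxred1, an oxidoreductase, with 53.4, 54.5 and 61.6 TPM at Day8 and 18.2, 18.6 and 18.3 TPM in Control (1.57), and Tmem70 with 98.8, 95.04 and 90.5 TPM at Day8 and 39.7, 41.2 and 36.5 TPM in Control (1.26). Nubpl, which delivers iron-sulfur clusters, rose by 0.95 and Acad9, a partner of Ndufaf1, by 0.83. Of 39 genes of complexes II to V, 38 were tested, and 35 rose and 2 fell, with a median of 1.22. The largest changes were those of Cox7a1 (7.24), Cox6a1 (2.23), Uqcrfs1 (2.05) and Sdhb (1.86). No gene of this list rose by more than 1.74 at MCE2 against Control, so most of the Cox7a1 change came later. Its Control level is not given here, and it may have passed the filter only through the later groups. Of 78 genes of the mitochondrial ribosome, 77 were tested, and 46 rose and 9 fell, with a median of 0.35. These counts stand beside the same background of 31.7% higher and 39.7% lower.

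Of 10 regulators of mitochondrial genes, 3 were called higher at Day8, 3 lower and 3 not called, with Esrrg at 0 in every library. Over all genes tested 31.7% were called higher and 39.7% lower. At MCE1, 2 of the 9 tested regulators were called higher and 2 lower (background 22.0% and 29.4%). At MCE2, 2 were called higher and 6 lower (background 23.4% and 39.1%). The coactivator Ppargc1b had 14.5, 15.4 and 12.4 TPM at Day8 and 0.673, 0.925 and 1.07 TPM in Control (log2 fold change 3.00, SE 0.12, adjusted p = 1.55e-12). Esrra, a nuclear receptor that works with it, had 151, 123 and 135 TPM at Day8 and 35.7, 39.5 and 35.5 TPM in Control (log2 fold change 1.85, SE 0.08, adjusted p = 4.96e-12). The groups of both genes lay far apart. Ppargc1a, the related coactivator, had 8.57, 6.10 and 7.87 TPM at Day8 and 2.55, 2.31 and 3.496 TPM in Control (log2 fold change 1.17, SE 0.15, adjusted p = 3.82e-06). In the expansion stages it was called lower than in Control, with log2 fold changes of -1.12 at MCE1 and -0.41 at MCE2. Nrf1 fell to 8.72, 7.66 and 6.02 TPM at Day8, against 13.6, 13.4 and 16.6 TPM in Control (log2 fold change -0.88, SE 0.15, adjusted p = 5.73e-05), Gabpa to 42.3, 43.9 and 38.1 TPM against 65.7, 62.7 and 65.5 TPM (-0.63) and the coactivator Pprc1 to 19.5, 17.7 and 14.2 TPM against 51.3, 41.6 and 43.3 TPM (-1.36). Yy1 (0.09), Gabpb1 (-0.33) and Tfam (0.15), which packs and transcribes mitochondrial DNA, were not called.

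Over all genes tested, Pearson's r between libraries of 1 group ran between 0.976 and 0.991. In Day6 replicate 2, 31 of the 46 genes with at least 1 TPM throughout had the lowest value of the 3 libraries, with a median of -0.13 (log2) against the other libraries of Day6. In Day8 replicate 2, Ndufb7 had 301 TPM against 465 and 450.0 TPM in the other Day8 libraries, and Ndufa7 and Ndufa2 were also lowest there. Ndufb11 was lower there than in Day8 replicate 1 but not than in Day8 replicate 3. In all, 12 genes were listed at another locus in Control replicate 1 and left out, none of them a complex I gene. The counts called at Day8 against Control ran between 40 and 42, and at Day6 against Control between 41 and 43, when each library was left out in turn.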

How the data were processed

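RNA was extracted with TRIzol, enriched for poly(A) and made into libraries without strand information, per the labels' protocols. The deposited values are TPM per gene with its mm9 position, 1 table per library. Per the submitters' processing notes, FastQC, cutadapt, HISAT2 and StringTie were used, and versions, annotation and filters are not given in the sources used here. TPM keep no counts, so the precision of each value is known from the spread between libraries alone.

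Names starting with Nduf were taken, and 12 genes listed at another locus in 1 library were left out. limma 3.58.1 (R 4.3.3) was fitted to log2(TPM + 1) of 12695 genes with 1 mean per group over 18 libraries (trend and robust, 12 residual degrees of freedom), 2-sided, with Benjamini-Hochberg adjustment over all genes in each of 10 comparisons and an F test. A gene was called at adjusted p under 0.05. The fit was tested on simulated data in which few genes were changed, at Day8 only. Changes of most genes, as found here, were not simulated. Replicate numbers did not pair libraries and no block was used.

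Genes named in full were the 4 highest and 4 lowest called at Day8 and at MCE1 against Control and at Day4 against MCE2, the highest of each class, and those not called by the F test or not tested; 1 gene counted in all totals is not reported here by name. Of each other list, up to 4 with the largest changes and all regulators were named. Other genes described (such as Ndufa9, Ndufs4 at MCE2, Ndufa12 and Ndufab1 at Day8) were chosen after their values were seen. Members, classes and lists were chosen with earlier results of these data known. Stretches of 50 bases shared between transcripts were counted in GENCODE M21 transcripts, and promoters came from RefSeq (GRCm38.p6). Alternatives were another pseudocount, filter or scaling, a fit on 6 libraries, a replicate block and leaving out each library.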

Additional observations from a re-analysis of the deposited data

How the results depend on the processing

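In every alternative, complex I genes called in each comparison stayed within 1.5 times the reported count, except at Day8 against Day6, where 9 became 2 when the 6 libraries were fitted by themselves, and ran between 4 and 17 when 1 library was left out. Leaving out each library gave 28 to 30 calls at MCE1, 34 to 36 at MCE2, 40 to 42 at Day4, 41 to 43 at Day6 and 40 to 42 at Day8 against Control. No log2 fold change of a called complex I gene changed sign. Median-ratio scaling gave 3622 genes higher and 3052 lower at MCE1 over all genes, against 2799 and 3727 in the reported fit, and 3938 and 3923 at MCE2, against 2969 and 4964. Complex I genes were then 36 higher and 0 lower at MCE1 and 39 and 0 at MCE2. A replicate block gave 31 higher and 0 lower at MCE1 and 39 and 1 at Day8. It added 7 and ended 5 calls of single genes. Same-numbered libraries of different groups correlated in their deviations between -0.0742 and 0.0927 (45 pairs), and 4 of 18 libraries correlated best with their own number. Without read depth, the limit of detection of low genes such as Ndufa4l2 is unknown.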

Other observations

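Ndufs5-ps, the name left out of the members, was listed at 78.2, 14.3 and 13.5 TPM in Control, 21.6, 16.4 and 17.6 at MCE1, 22.5, 21.3 and 22.6 at MCE2, 53.5, 47.8 and 48.4 at Day4, 54.9, 57.9 and 50.3 at Day6 and 54.6, 53.9 and 81.3 at Day8. Control replicate 1 stood far above the other Control libraries, where Ndufs5 itself had its lowest Control value. In Day8 replicate 3 Ndufs5-ps was high, and Ndufs5 was highest in Day8 replicate 1.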
